A study of Homo sapiens with 18 samples.

Results

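MethylCap and MethylMiner are commercial kits that pull methylated DNA out of a fragmented genome, and their coverage was compared here gene by gene. The members were the 3 MethylCap and the 3 MethylMiner libraries among the 15 libraries of methyl-CpG binding domain sequencing (MBD-seq), in a series of 18 samples that also holds 3 libraries of reduced representation bisulfite sequencing (RRBS). They were chosen by the kit named in their labels. Each kit was applied once to the DNA of each of 3 established human cell lines, the colorectal carcinoma line HCT15 and the prostate cancer lines DU145 and PC3. No treatment was given, no gene was altered, and the labels give ATCC growth medium for all of them. The labels give ATCC as the source of DU145, whereas the study's methods give CHU Liège. The same fragmented DNA of a line went into both kits, which were run by their makers' protocols at the highest salt concentration, so the libraries were paired by line and the 3 lines were the only replicates of a kit. The study's text states that a low-salt fraction was part of the MethylMiner eluate, so that the binding domain, the elution and the rest of a kit cannot be told apart.

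A methyl-CpG binding domain (MBD) is the part of a protein that holds on to cytosines methylated in CpG dinucleotides, and MBD-seq reads the DNA that such a domain retains. Both kits carry such a domain, taken from different proteins. Most CpGs of the human genome are methylated, whereas the dense CpG islands at the start of many genes are usually free of methylation and become methylated at some genes in cancer cells. RRBS reads methylation base by base after bisulfite treatment and so gives a separate measure of each promoter.

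The MethylCap libraries held 3886402, 823586 and 950278 fragment starts for HCT15, DU145 and PC3, and the MethylMiner libraries 7344098, 2955893 and 2092970. The mean depth over the autosomes ran from 0.0534 in MethylCap of DU145 to 0.495 fragments per base in MethylMiner of HCT15. Relative depth is used throughout for the depth of a feature divided by this mean of its library, so that 1 is the autosomal average. The line of each library was checked over 2640 tiles of 1 Mb, where the deviation of a library from the mean of its kit correlated across kits by 0.82 for HCT15, 0.79 for DU145 and 0.81 for PC3. Between different lines the correlation was at most -0.07. Over the promoters it was 0.080 to 0.092 within a line and at most -0.01 between lines. The deviations of a kit cancel out over its libraries, so positive correlations within lines bring negative ones between lines by construction. The values between lines are therefore no separate check.

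Of 19229 autosomal protein-coding genes, 19220 had a promoter with little unknown sequence, taken as 1000 bp either side of the 5′ end on GRCh37, and 18136 had a body beyond it of at least 1000 bp. The 5′ end was the outermost end of the annotated gene. In genes with several annotated starts, the promoter can therefore lie away from the start in use, which was not tested. The intergenic genome gave 74319 windows of 10000 bp outside all annotated genes. A feature was tested when the 6 libraries together held at least 10 fragment starts in it, which left 16314 promoters, 17757 gene bodies and 71600 windows. Coverage has no strand, and 3463 of the tested promoters overlapped another one, so pairs of neighbouring genes shared some of their values. The median number of fragment starts in a tested promoter was 4, 1 and 1 for MethylCap and 9, 4 and 3 for MethylMiner in HCT15, DU145 and PC3, which limits single promoters. Intervals and floors given for counts cover counting error only.

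The stretches of 200 bases just upstream of the 5′ end are shown for one of the 8 promoters most in favour of MethylCap (CRYGN, chr7:151137900-151138099, minus strand), one of the 8 most in favour of MethylMiner (PRXL2B, chr1:2517730-2517929, plus strand) and the lowest olfactory receptor promoter (OR6V1, chr7:142749238-142749437, plus strand). They were read from GRCh37 and are written 5′ to 3′ with the CpGs in capitals.
CRYGN: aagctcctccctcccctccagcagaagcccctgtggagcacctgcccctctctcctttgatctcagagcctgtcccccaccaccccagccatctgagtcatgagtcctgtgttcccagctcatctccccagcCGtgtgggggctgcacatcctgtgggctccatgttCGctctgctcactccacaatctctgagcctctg
PRXL2B: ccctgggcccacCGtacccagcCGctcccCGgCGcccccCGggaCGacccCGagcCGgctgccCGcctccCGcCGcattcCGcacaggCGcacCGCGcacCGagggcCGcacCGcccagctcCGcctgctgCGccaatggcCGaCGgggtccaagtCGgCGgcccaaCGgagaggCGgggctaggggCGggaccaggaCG
OR6V1: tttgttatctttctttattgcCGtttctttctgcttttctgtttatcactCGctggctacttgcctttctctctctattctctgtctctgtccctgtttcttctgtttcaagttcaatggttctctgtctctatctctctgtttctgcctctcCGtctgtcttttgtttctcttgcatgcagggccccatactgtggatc
The PRXL2B stretch held 28 CpGs, while CRYGN held 2 and OR6V1 3, so that of the promoters leaning toward MethylMiner one was rich and one poor in CpGs here. CRYGN was the CpG-poorest of the 8 promoters farthest toward MethylCap, with 3.25 CpGs per 100 bp of promoter against 5.40 to 15.7 in the others.

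These promoters differed in RRBS methylation, at 50.02 to 92.9% for CRYGN and 12.5 to 14.1% for PRXL2B, while OR6V1 had no RRBS value. A promoter was given an RRBS value in a line when at least 5 of its CpGs had a coverage of at least 20, which held for 12772, 13085 and 12714 promoters of the lines in this order, with a median coverage of 35, 60 and 41 reads. In promoters at most 10% methylated in the line, MethylCap had a mean relative depth of 0.693 in HCT15 (1717 promoters), 0.713 in DU145 (1448) and 0.541 in PC3 (1554). In promoters at least 80% methylated it had 7.13 (2066), 6.42 (1202) and 7.47 (950). MethylCap was thus 11.0 ± 2.49-fold (SD, n = 3 lines) higher over methylated than over unmethylated promoters, with no pseudocount and no dependence on the scaling. MethylMiner had 1.79, 2.25 and 2.68 over the unmethylated and 1.92, 2.46 and 2.58 over the methylated promoters of the same lines. Its ratio was 1.04 ± 0.070 (SD, n = 3 lines), above 1 in HCT15 and DU145 and below 1 in PC3, so that no direction held in all lines.

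**Figure D1:**
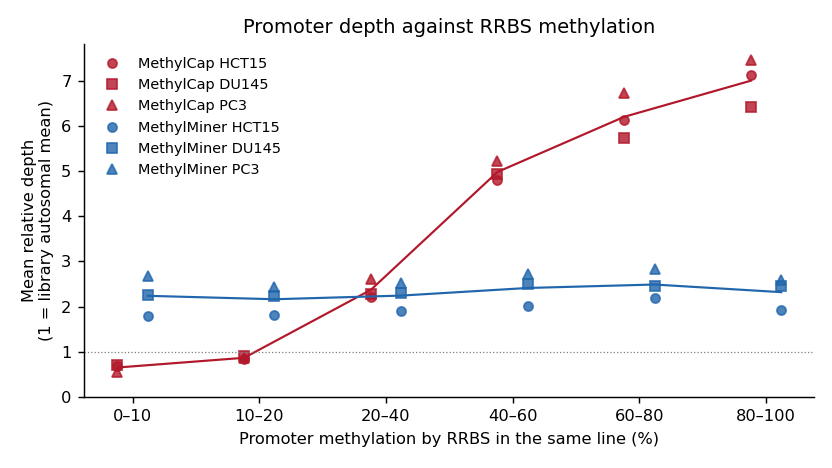
Mean relative depth of promoters (vertical axis, 1 is the autosomal mean of the library) in 6 classes of RRBS methylation in the same line (horizontal axis, percent). Each point is 1 library and lines join the means of the 3 cell lines. MethylCap climbs from 0.541 to 0.713 in the lowest class to between 6.42 and 7.47 in the highest, while the MethylMiner points of a line stay level.

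The median log2 ratio of MethylCap over MethylMiner was 1.76 in HCT15, 1.27 in DU145 and 1.38 in PC3 for the methylated promoters that were tested, with a mean of 1.47 ± 0.26 (SD, n = 3 lines). For the unmethylated promoters it was -1.91, -2.58 and -3.01, with a mean of -2.50 ± 0.56 (SD, n = 3 lines). The classes differed by 3.97 ± 0.38 (SD, n = 3 lines) on the log2 scale. Swapping the kits within lines in an exact permutation test gave p = 0.25 for each class, which is the smallest two-sided value that 3 lines allow. The size of the unmethylated value rests on the pseudocount of 0.25, since many of these promoters had no MethylCap fragment, while its sign did not change under any alternative run.

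RRBS values between 10 and 20% were the most common, with 5971, 6533 and 6516 promoters. They behaved like the lowest class, with 0.840, 0.899 and 0.852 for MethylCap and 1.82, 2.23 and 2.44 for MethylMiner. Across promoters, the rank correlation of relative depth with RRBS methylation was 0.65, 0.48 and 0.52 for MethylCap in HCT15, DU145 and PC3, and 0.053, 0.023 and -0.017 for MethylMiner. With CpG density it was -0.026, -0.005 and -0.048 for MethylCap and 0.092, 0.22 and 0.21 for MethylMiner. These describe points that share a library and are not independent.

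CpG density was also held within ranges. Among promoters at most 20% methylated, MethylCap rose from 0.620, 0.522 and 0.611 at 2 to 4 CpGs per 100 bp to 0.894, 1.01 and 0.915 at 6 or more, in HCT15, DU145 and PC3. MethylMiner rose there from 1.55, 1.56 and 1.75 to 1.93, 2.55 and 2.84. Among promoters at least 80% methylated, MethylCap rose from 6.16, 5.88 and 6.77 to 8.53, 11.4 and 11.8. MethylMiner gave 2.05, 2.46 and 2.66 and then 1.90, 2.94 and 3.39, so that it rose in DU145 and PC3 and fell in HCT15.

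Around the 5′ end the kits took opposite shapes where DNA was unmethylated. Within 200 bp of the 5′ end of unmethylated promoters MethylCap sank to 0.263, 0.317 and 0.231 in HCT15, DU145 and PC3, from 2.37, 2.14 and 2.24 at 4 to 5 kb upstream. MethylMiner rose there to 1.98, 2.79 and 3.56, from 1.56, 1.51 and 1.49. At methylated promoters both kits had a peak over the 5′ end, of 8.43, 8.16 and 9.89 for MethylCap and 1.95, 2.82 and 2.93 for MethylMiner.

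**Figure D2:**
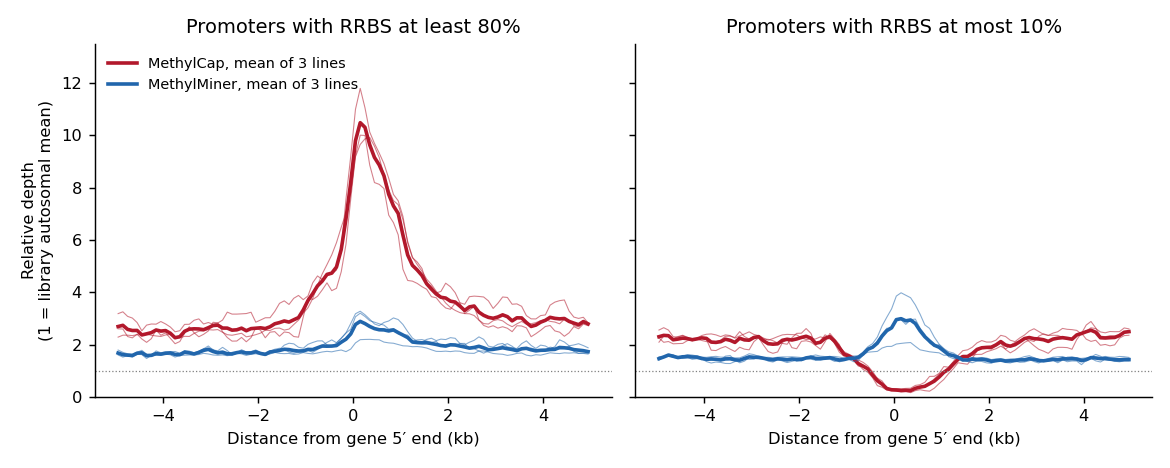
Mean relative depth (vertical axis, 1 is the autosomal mean) against the distance from the gene 5′ end (horizontal axis, kb, in steps of 100 bp), for promoters at least 80% (left) and at most 10% (right) methylated by RRBS in the line. Thin curves are the 3 lines and thick curves their mean. MethylCap has a peak on the left and a trough on the right, of 0.231 to 0.317 within 200 bp, while MethylMiner has a peak in both panels.

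Promoters whose methylation differs between lines gave a comparison within a kit. For each ordered pair of lines, promoters at least 60% methylated in one line and at most 20% in the other were taken, between 35 and 389 of them. MethylCap was 3.78- to 5.07-fold higher in the line with the methylated promoter in all 6 pairs. For the 389 promoters methylated in HCT15 and not in PC3, it had a mean relative depth of 6.24 in HCT15 and 1.65 in PC3. The MethylMiner libraries had 1.65 in HCT15 and 2.53 in PC3 over these promoters. The MethylMiner ratio of the methylated to the unmethylated line lay between 0.653 and 1.13 over the 6 pairs.

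Over the whole set, 1066 promoters were higher in MethylCap (6.53% of those tested) and 4016 were higher in MethylMiner (24.6%) at an adjusted p under 0.05, by limma with the cell line as block and Benjamini-Hochberg adjustment. With edgeR on fragment starts the counts were 195 and 2092, and with the libraries centred on their intergenic windows, which shifts every ratio by 0.94 on the log2 scale, 2530 and 1922. At least 2-fold apart in all 3 lines were 918 promoters toward MethylCap (5.63%) and 3849 toward MethylMiner (23.6%). Of the 4016 promoters higher in MethylMiner, 2362 had no MethylCap fragment start in any line, while no tested promoter was without a MethylMiner start. The filter sums the starts of both kits, so promoters with no MethylCap start passed it through MethylMiner alone. The MethylMiner library was the deeper in each line, so these numbers also reflect depth and filter. The median log2 ratio over all tested promoters was -0.96, or -0.83 with promoters that had no MethylCap start set to the bound that 3 counts over the kit allow. Centring therefore evened out the numbers of higher and lower promoters, so the split between the kits is a split relative to the library total. Leaving out HCT15, the deepest line, left 417 promoters higher in MethylCap. Among the 5752 promoters with at least 30 starts the median was 0.43, with 1080 higher in MethylCap and 224 in MethylMiner, and with all libraries drawn down to equal depth limma called 187 and 0, the latter with 1404 at an unadjusted p under 0.05.

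The calls sorted by RRBS. Of the 433 tested promoters at least 80% methylated in all 3 lines, 194 were higher in MethylCap and none (0) were higher in MethylMiner. Of the 5566 promoters at most 20% methylated in all lines, 10 were higher in MethylCap and 2654 in MethylMiner. Their median log2 ratios were 1.45 and -2.20 (-1.54 with the bound). Of the 5118 tested promoters with an RRBS value in all lines that were in neither set, 573 were higher in MethylCap and 519 in MethylMiner. These can include promoters methylated in one line and not in another.

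The 8 promoters farthest toward MethylCap were chosen by a rule on the size of the ratio, so their values are a description. FOXF1, a forkhead transcription factor of mesenchyme and lung development, had a relative depth of 7.57, 16.3 and 13.1 with MethylCap in HCT15, DU145 and PC3 and 0.887, 2.74 and 0 with MethylMiner. Its RRBS methylation was 59.4, 58.3 and 39.5%, and its log2 ratio 3.66 ± 0.72 (SE, n = 3 lines, limma adjusted p = 0.0032). Since the rule asks for a 2-fold difference in every line, little overlap between the kits was possible in promoters, bodies and windows named by it.

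PCDH8, a protocadherin of cell adhesion (chr13:53421776-53423776), had 15.8, 2.57 and 5.72 with MethylCap and 0.680, 0.938 and 0 with MethylMiner, at 95.9, 97.0 and 89.4% methylation. SALL3, a zinc finger transcription factor of development, had 3.88, 6.02 and 11.7 against 0.593, 0.965 and 0. ZFP42, which encodes the pluripotency marker REX1, had 7.48, 3.24 and 5.61 against 0.897, 0.386 and 0. In each of these promoters the PC3 library of MethylMiner was at 0.

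GRIN1, a subunit of the NMDA glutamate receptor, had 13.0, 7.56 and 10.1 with MethylCap and 1.93, 2.20 and 0 with MethylMiner. CRYGN, a crystallin gene, had 6.29, 9.53 and 10.2 against 1.29, 0 and 0.658, and FAM240C had 13.8, 14.4 and 10.2 against 2.19, 0.829 and 1.12. Their limma log2 ratios were 3.21, 3.63 and 3.07. Of the 8 promoters, the lowest RRBS values outside LIMK1 were 31.0% in GRIN1 and 36.6% in SALL3, both in PC3. LIMK1, a kinase that acts on the actin regulator cofilin (chr7:73496263-73498263), was the exception by RRBS. It had 6.59, 5.73 and 11.2 with MethylCap and 0.940, 2.20 and 0 with MethylMiner although RRBS gave 7.52, 14.1 and 17.4% methylation. RRBS covered 19 to 22 of its 108 CpGs.

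The promoters farthest toward MethylMiner had no MethylCap fragment in any line. THEM6 (chr8:143807641-143809641) had a relative depth of 2.97, 6.18 and 18.2 with MethylMiner in HCT15, DU145 and PC3, at 9.78, 10.4 and 9.33% methylation. Its 52 MethylMiner starts against 0 for MethylCap make it at least 7.98-fold higher, with the floor of 3 counts over the 3 MethylCap libraries. PRXL2B, a peroxiredoxin-like gene (chr1:2516930-2518930), had 5.11, 2.98 and 8.62, and was at least 6.60-fold higher. ZCCHC24 had 2.08, 4.56 and 13.4, at least 6.14-fold higher.

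ZBTB1, a zinc finger transcription factor of lymphocyte development, had 3.50, 4.87 and 6.70 with MethylMiner. ADO, which encodes a thiol dioxygenase, had 1.97, 3.92 and 11.9. FAM216A had 2.47, 5.53 and 6.95 and ENSG00000255872 had 2.48, 6.89 and 6.97. These 7 promoters were between 8.15 and 14.1% methylated by RRBS in every line. In 6 of them the HCT15 library, the deepest, had the lowest of the 3 MethylMiner values, and PRXL2B was the exception.

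**Figure D3:**
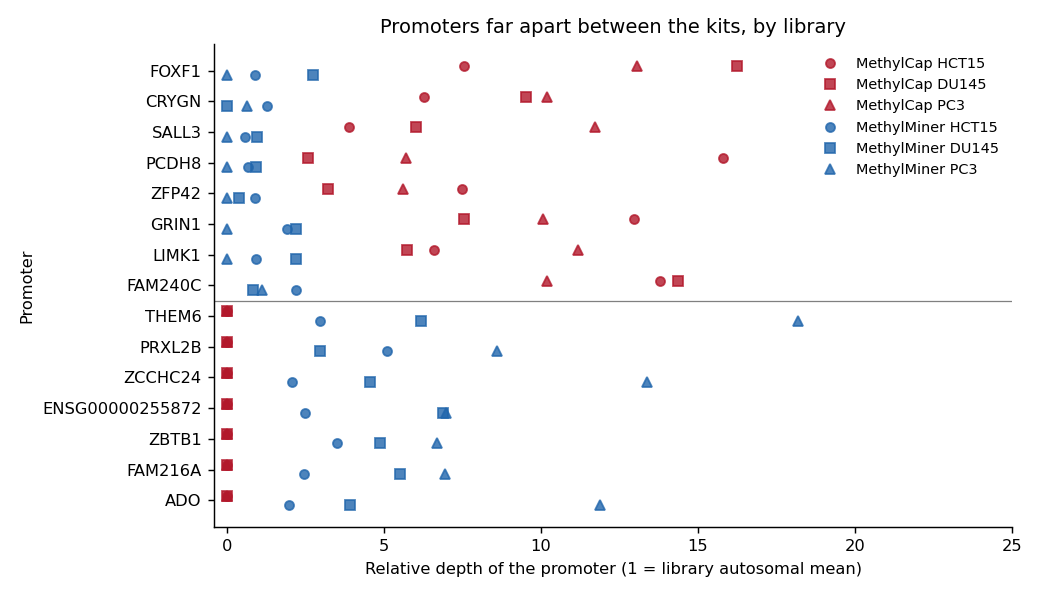
Relative depth (horizontal axis, 1 is the autosomal mean) of 8 promoters far toward MethylCap and 7 far toward MethylMiner, with 1 point per library, red for MethylCap and blue for MethylMiner. Above the line the MethylCap points lie between 2.57 and 16.3, and below it all MethylCap points are at 0.

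The promoters that the study inspected gave values between these extremes. TERT, the catalytic subunit of telomerase (chr5:1294183-1296183), had 16.9, 23.1 and 25.7 with MethylCap and 4.30, 6.70 and 3.93 with MethylMiner in HCT15, DU145 and PC3. Its log2 ratio was 2.10 ± 0.25 (SE, n = 3 lines, limma adjusted p = 0.00014), and the groups did not overlap. EPB41L3, a membrane skeleton protein lost in several tumours, had 6.06, 20.6 and 0 with MethylCap, at 51.4, 68.0 and 13.0% methylation, and 2.08, 2.32 and 2.85 with MethylMiner. IGFBP3, which binds insulin-like growth factors, had 6.27, 0 and 3.31 at 48.8, 8.93 and 19.2%, and 2.20, 5.78 and 2.74 with MethylMiner. SOCS3, an inhibitor of cytokine signalling, had 3.31, 1.43 and 4.98 at 43.9, 13.1 and 27.9%, and 1.81, 3.31 and 6.74 with MethylMiner. In EPB41L3 and IGFBP3 MethylCap was highest in the line with the highest methylation and at 0 in the line with the lowest. TERT was 79.0, 48.8 and 67.5% methylated. In TERT and SOCS3 MethylCap was highest in PC3, whereas methylation was highest in HCT15. EPB41L3, IGFBP3 and SOCS3 did not pass the limma test, with adjusted p between 0.47 and 0.86.

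Gene lists are given by their counts, to be read beside the 6.53% of all tested promoters that were higher in MethylCap, the 24.6% that were higher in MethylMiner, and the median of -0.96 (-0.83 with the bound). Developmental transcription factor genes, which often carry CpG islands that gain methylation in cancer, had 30 of 97 tested promoters higher in MethylCap and 7 higher in MethylMiner, with a median log2 ratio of 0.81. LHX1, a homeobox factor of kidney development, had a ratio of 2.97 and PAX4, of pancreatic islets, and GATA6, of endoderm, had no MethylCap start. HOX genes, which lay down the body axis, had 8 of 36 higher in MethylCap and 3 in MethylMiner, with a median of 0.52. HOXC12 had 9.91, 13.7 and 11.0 with MethylCap and 1.36, 2.07 and 2.67 with MethylMiner. HOXD1 had a ratio of 2.19, while HOXB9 and HOXC4 had no MethylCap start.

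Germline genes, which are silenced by methylation in body cells, had 4 of 27 promoters higher in MethylCap and 1 in MethylMiner, and the highest median of the lists, 1.16. TDRD9 and TDRD12, Tudor proteins of the piRNA pathway that guards germ cells, had log2 ratios of 2.06 and 2.04 at 83.9% methylation or more in every line. TDRKH, also a Tudor protein, was the lowest promoter of the list and was higher in MethylMiner. It had a ratio of -3.20 and no MethylCap start, at 9.39 to 14.5% methylation. Cancer methylation markers had 7 of 31 higher in MethylCap and 2 in MethylMiner. CCND2, a cyclin, and RUNX3, a transcription factor, had ratios of 2.79 and 2.40.

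Imprinted genes had 5 of 30 promoters higher in each kit and a median of 0.09. FAM50B had 16.0, 19.7 and 15.7 with MethylCap and 2.34, 5.11 and 2.68 with MethylMiner. GNAS, a G protein subunit, had a ratio of 1.86, while PLAGL1, a zinc finger factor, was the promoter of the list with no MethylCap start. Clustered protocadherins, neuronal adhesion molecules, had 2 of 45 higher in MethylCap, with PCDHGA7 at 2.83, and none (0) higher in MethylMiner by limma.

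Housekeeping genes, which cells keep active, had none (0) of 22 promoters higher in MethylCap and 10 higher in MethylMiner by limma, with a median of -2.22, or -1.29 with the bound. GAPDH, the glycolytic enzyme, had 0.286, 0 and 0 with MethylCap and 2.27, 1.66 and 2.57 with MethylMiner, at 9.97, 15.2 and 11.6% methylation. The promoter at the outermost annotated 5′ end of ACTB, beta-actin (chr7:5602533-5604533), had 1.87, 0 and 4.41 against 2.82, 3.04 and 4.16. It was 39.6, 44.6 and 53.0% methylated and did not pass (limma adjusted p = 0.26). Whether this end is the start in use was not tested. REEP5 and B2M, the light chain of MHC class I, had no MethylCap start. At their outermost annotated 5′ ends (chr6:74234310-74236310 and chr6:30684212-30686212), EEF1A1 and TUBB had ratios of 1.34 and 0.74 that did not pass.

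Ribosomal protein genes had 24 of 66 promoters higher in MethylMiner and 1 in MethylCap, with a median of -1.67, or -1.40 with the bound. The exception lay at the outermost annotated 5′ end of RPL22 (chr1:6268449-6270449). It had 10.7, 18.7 and 24.1 with MethylCap and 3.31, 2.90 and 5.93 with MethylMiner. There was no RRBS value for it in any line, and whether this end is the start in use was not tested. RPS29 had 0 in all MethylCap libraries and 2.55, 2.57 and 5.21 in the MethylMiner libraries. Histone genes of chromosome 6 had 13 of 44 (29.6%) higher in MethylMiner and 3 (6.82%) in MethylCap, near the 24.6 and 6.53% of all promoters. H2BC1 and H4C7 were the highest, with ratios of 2.53 and 2.35, and H2AC11 and H2BC15 had no MethylCap start.

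Zinc finger genes of chromosome 19, most of them repressors of transposable elements, had 27 of 231 promoters (11.7%) higher in MethylMiner and 10 (4.33%) in MethylCap, both below the 24.6 and 6.53% of all promoters, with a median of -0.66. ZNF154 had 4.89, 5.46 and 10.0 with MethylCap and 0.749, 0.862 and 1.22 with MethylMiner, at 88.4 to 97.7% methylation. ZNF541 had a ratio of 2.96, while ZNF576 and ZNF324B had no MethylCap start.

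Olfactory receptor genes, with a median of 0.65 CpGs per 100 bp of promoter, had 51 of 172 tested promoters (29.6%) higher in MethylMiner, near the 24.6% of all promoters, and 5 (2.91%) in MethylCap, and 241 of the 413 members had too few fragments to be tested. OR6V1, whose sequence is shown above, had 3.63, 3.47 and 4.70 with MethylMiner and no MethylCap fragment, at least 5.22-fold higher. OR10J4 also had no MethylCap start, while OR10Q1 and OR3A2 had ratios of 2.91 and 1.95. Keratin-associated protein genes had 12 of 78 higher in MethylCap and 7 in MethylMiner, with KRTAP4-6 at 5.52, 26.6 and 8.20 against 1.98, 6.54 and 1.77. These genes lie in clusters of near copies, where the number of uniquely mapped fragments is uncertain.

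**Figure D4:**
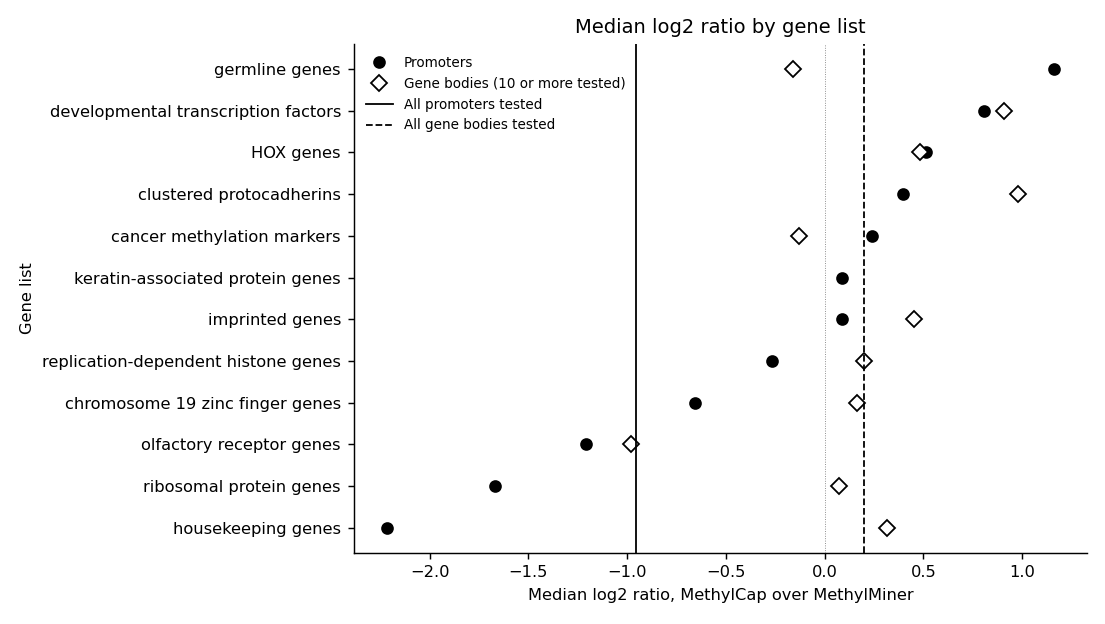
Median log2 ratio of MethylCap over MethylMiner (horizontal axis) for the tested promoters (filled circles) and bodies (open diamonds) of 12 gene lists (vertical axis). Vertical lines mark the medians of all tested promoters (solid, -0.96) and bodies (dashed, 0.20), and housekeeping and ribosomal protein promoters lie lowest while their bodies lie near the dashed line.

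Gene bodies, which are mostly methylated, leaned toward MethylCap. Their mean relative depth was 2.62, 2.32 and 2.56 with MethylCap and 1.53, 1.54 and 1.56 with MethylMiner in HCT15, DU145 and PC3. By limma, 4299 bodies were higher in MethylCap (24.2%) and 1509 in MethylMiner (8.5%), against 4241 and 4159 by edgeR on fragment starts and 13065 and 172 with centring on the intergenic windows. At least 2-fold apart in all lines were 1198 toward MethylCap (6.75%) and 308 toward MethylMiner (1.73%). Leaving out HCT15 or PC3 ended all limma calls for bodies in both directions (0 each), while 5002 and 2277 bodies still had an unadjusted p under 0.05 without PC3 and 4019 and 1417 without HCT15. At equal depth limma called 0 in both directions, with 4608 and 1677 at an unadjusted p under 0.05, and without the pairing by line it called 2333 and 830.

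CpG density ordered the bodies. In bodies with under 0.5 CpGs per 100 bp, MethylCap had a relative depth of 0.092, 0.151 and 0.116, and with 3 or more it had 8.29, 7.18 and 8.04. MethylMiner went from 0.528, 0.594 and 0.559 to 2.53, 3.11 and 3.26. From the lowest to the highest class, MethylCap thus rose 68.9 ± 21.1-fold and MethylMiner 5.29 ± 0.52-fold (SD, n = 3 lines). MethylCap lay below MethylMiner at 0.75 to 1 CpG per 100 bp, with 0.768 ± 0.038 against 0.934 ± 0.062, and above it at 1 to 1.5, with 1.60 ± 0.079 against 1.35 ± 0.062 (SD, n = 3 lines).

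**Figure D5:**
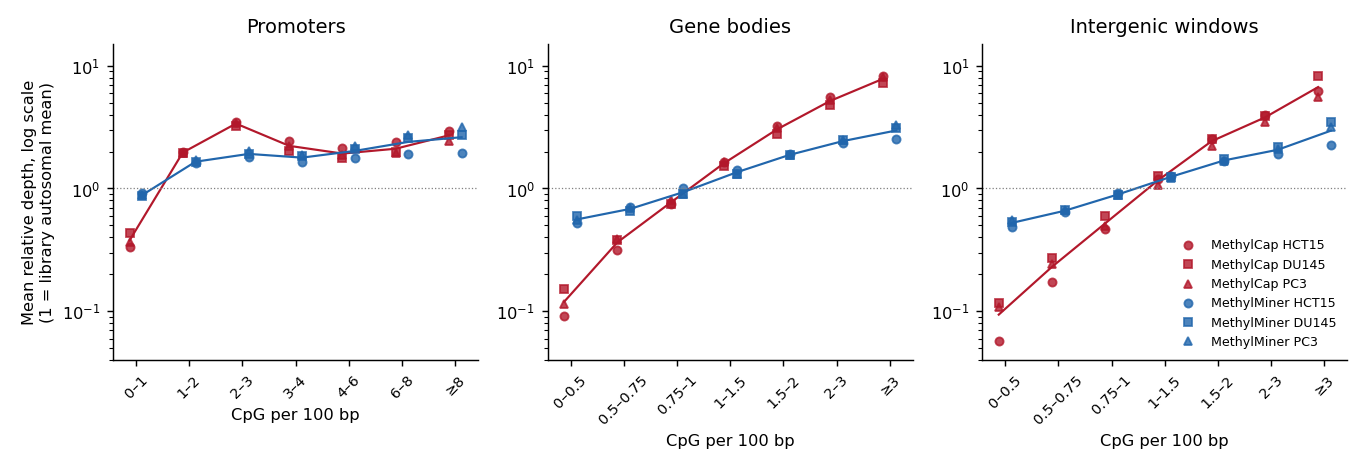
Mean relative depth (vertical axis, log scale, 1 is the autosomal mean) in classes of CpGs per 100 bp (horizontal axis) for promoters, gene bodies and intergenic windows, with 1 point per library and lines through the means of the 3 cell lines. The MethylCap lines are steeper in bodies and windows, and at promoters MethylCap is highest at 2 to 3 CpGs per 100 bp, with 3.38 on average.

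Of the 5 bodies farthest toward MethylCap, NKX1-1, a homeobox gene, had 14.3, 17.4 and 8.36 with MethylCap and 2.33, 1.29 and 0.864 with MethylMiner, a log2 ratio of 2.99 ± 0.24 (SE, n = 3 lines, limma adjusted p = 0.015). KCNF1, a potassium channel subunit, had 18.0, 24.2 and 24.97 against 3.53, 2.31 and 3.21. SP9, a zinc finger factor of forebrain and limb, had a ratio of 2.84, IRX1, a homeobox gene, 2.88, and ACTA1, the actin of skeletal muscle, 2.71. All 5 were 48.6 to 95.5% methylated by RRBS.

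Of the 5 bodies farthest toward MethylMiner, 3 lie close together on chromosome 1 (IVL, S100A7A and TCHHL1). IVL, which encodes involucrin of the skin's cornified envelope, had 0, 1.46 and 0 with MethylCap and 3.49, 13.6 and 4.55 with MethylMiner. From 1 MethylCap start against 60 MethylMiner starts, its pooled ratio was 0.036 (95% exact interval 0.0009 to 0.21). S100A7A, a skin S100 protein, had 0.095, 0 and 0 against 1.57, 4.91 and 3.38, a pooled ratio of 0.033 (0.00082 to 0.19). TCHHL1, a relative of trichohyalin, had no MethylCap start and 33 MethylMiner starts, at least 5.07-fold higher. SLC50A1, a sugar transporter, and LACRT, which encodes the tear protein lacritin, had 1 MethylCap start each against 29 and 30, with ratios of 0.075 (0.0018 to 0.45) and 0.072 (0.0018 to 0.43).

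Over all tested bodies 24.2% were higher in MethylCap and 8.5% in MethylMiner. Clustered protocadherins had 39 of 53 bodies higher in MethylCap and developmental transcription factors 51 of 97, with none (0) and 3 higher in MethylMiner by limma. A body ran to the annotated end of its gene, so bodies of overlapping genes shared fragments. The 53 protocadherin bodies are therefore not separate stretches of DNA, and how far they overlap was not tested. HOX gene bodies had 12 of 37 (32.4%) higher in MethylCap, while imprinted genes, with 5 of 26 (19.2%), and ribosomal protein genes, with 8 of 66 (12.1%), lay below the share over all bodies. Olfactory receptor genes had 71 of 180 higher in MethylMiner and 1 in MethylCap. Housekeeping genes had 7 of 21 bodies (33.3%) higher in MethylCap, not far from the 24.2% of all bodies, and none (0) higher in MethylMiner by limma. Germline genes showed 2 of 29 higher in MethylCap and 6 in MethylMiner, with a median of -0.16.

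Promoter and body of a gene could therefore point to opposite kits. Of 3851 genes with a promoter higher in MethylMiner and both features tested, 814 (21.1%) had a body higher in MethylCap, where 27.2% of all such bodies were. Of 958 genes with a promoter higher in MethylCap, 409 (42.7%) had a body higher in MethylCap. FASN, the fatty acid synthase, had a promoter with 0.387, 0 and 0 in MethylCap and 3.53, 2.96 and 5.83 in MethylMiner and a body with 19.7, 20.9 and 18.7 in MethylCap and 3.65, 5.39 and 4.72 in MethylMiner. RRBS gave 10.8 to 12.1% for this promoter and 95.7 to 97.6% for the body. MVD, an enzyme of cholesterol synthesis, had no MethylCap depth at the promoter and 10.6, 9.70 and 8.17 in the body, where MethylMiner had 2.73, 3.09 and 2.09. These 2 genes are among the 6 with the widest gap between body and promoter and were chosen after their values were seen.

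Intergenic windows, which are poor in CpGs, leaned toward MethylMiner. Their mean relative depth was 0.542, 0.632 and 0.544 with MethylCap and 0.822, 0.847 and 0.840 with MethylMiner. By limma, 1928 windows were higher in MethylCap (2.69%) and 31846 in MethylMiner (44.5%). By edgeR on fragment starts the counts were 676 and 1134, and centring on these windows themselves gave 7448 and 748, so the number of windows higher in MethylMiner depends on the tool and the scaling. Without HCT15 they were 881 and 17528, and without the pairing by line 920 windows were higher in MethylCap. At equal depth the counts were 790 and 4797. With windows that may hold non-coding genes they were 4104 and 53118, of the larger number of 125926 tested. At least 2-fold apart in all lines were 287 windows toward MethylCap (0.401%) and 12433 toward MethylMiner (17.4%).

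From under 0.5 to at least 3 CpGs per 100 bp, windows rose from 0.058, 0.116 and 0.108 to 6.21, 8.25 and 5.59 with MethylCap, which is 76.6 ± 28.2-fold (SD, n = 3 lines). MethylMiner rose from 0.485, 0.535 and 0.552 to 2.24, 3.47 and 3.14, or 5.60 ± 0.93-fold. The window chr9:90370001-90380000 had 3.34, 5.08 and 1.15 with MethylCap and 0.757, 0.537 and 0.153 with MethylMiner, a log2 ratio of 2.13. The window chr22:51070001-51080000 had 2.14, 3.41 and 3.31 against 0.748, 0.534 and 0.280, and chr15:20140001-20150000 had 2.15, 6.06 and 3.71 against 0.388, 0.928 and 0.816.

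Toward MethylMiner, the window chr1:148840001-148850000 had 0.192, 0.254 and 0 with MethylCap and 2.08, 7.41 and 3.03 with MethylMiner. The window chr21:9550001-9560000 had 0, 0.470 and 0 against 2.81, 2.43 and 3.36, and chr1:5730001-5740000 had 0.169, 0 and 0.030 against 2.28, 1.92 and 3.18.

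Windows within 5 Mb of a chromosome end had a median log2 ratio of -0.29 and 652 of 3841 were higher in MethylCap (limma), against -0.91 and 1276 of 67759 farther in. Their median CpG density was 1.28 against 0.65 per 100 bp. Bodies near the ends had a median of 0.98, with 1346 of 2200 higher in MethylCap, and a CpG density of 2.45 per 100 bp, against 0.12, 2953 of 15557 and 1.18 farther in. The part of CpG density in this difference was not tested. By chromosome, the median of the bodies was highest on chromosome 19, at 0.79, and lowest on chromosome 4, at -0.21, where the bodies had 2.18 and 0.83 CpGs per 100 bp.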

How the data were processed

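Fragmented DNA of the 3 lines was captured with MethylCap or MethylMiner and sequenced as read pairs. The authors mapped the pairs to NCBI build 37 (hg19 per the labels) with Bowtie, kept uniquely mapped pairs and collapsed duplicates to 1 fragment. The deposited signal is the unscaled depth (coverage) of these fragments in runs, with positions counted from 0. For RRBS the authors deposited read counts per CpG, methylated and total, with no values on chromosome 22 in PC3.

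Depth was summed over promoters, bodies and windows on GRCh37 with GENCODE 44 genes, and fragment starts were counted from rises of the depth. Features with over 10% unknown bases were left out. log2(relative depth + 0.25) was tested with limma 3.58.1 in R 4.3.3 (trend, cell line as block, Benjamini-Hochberg over the class), so fold changes of low features depend on the pseudocount. Where MethylCap had no start, the log2 ratio could be larger than the bound from counts. The median of promoters at most 20% methylated in all lines was -2.20, against -1.54 with the bound. The lines pair the libraries because the same DNA went into both kits. edgeR 4.0.16 on the starts was an alternative, beside other pseudocounts, filters, scalings, widths, an equal depth of 811203 starts and each line left out. The limma and edgeR steps were tested on simulated data. Named promoters, bodies and windows were the 8, 5 and 3 with the largest log2 ratio in each direction among those called, 2-fold apart in all lines and with at least 30 starts. To them were added 4 promoters the study inspected, the 2 highest and 2 lowest promoters of each gene list, GAPDH and ACTB. The members and lists were chosen with earlier results of these data known. The 3 lines are the replicates, each from a single culture, so p-values rest on the spread between these lines. limma draws the spread of each feature toward a trend over its class. It did so with 15.3, 2.89 and 71.6 prior degrees of freedom for promoters, bodies and windows. The SE and p-values of promoters and windows therefore rest mostly on spread pooled over features rather than on their own. The other kits were not used here. Some items that the rule names are not reported here.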

Additional observations from a re-analysis of the deposited data

How the results depend on the processing

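The median ratios of promoters at least 80% and at most 10% methylated kept their directions under every alternative run, which were not run for the classes between, and the cause of each move below was not tested. The log2 ratio of methylated promoters was 1.21 with a pseudocount of 1, 2.41 centred on the intergenic windows and 2.26 centred on the promoters. The ratio of unmethylated promoters was -3.39 with a pseudocount of 0.1, -1.27 with 1, -1.54 with at least 30 starts, and -1.56 and -1.71 with the 2 centrings. Leaving out a line gave 1.32 to 1.57 and -2.80 to -2.25. Promoters higher in MethylCap numbered 525 with no filter, 2530 and 2013 with the centrings, 195 with edgeR, 187 at equal depth, 562 with flanks of 500 bp and 417 to 1142 leaving out a line. Promoters higher in MethylMiner numbered 224 with at least 30 starts, 1922 and 2080 with the centrings, 2092 with edgeR, 0 at equal depth, 2214 with flanks of 2000 bp and 2822 to 3730 leaving out a line. Bodies higher in MethylCap numbered 2333 without the replicate block (the pairing by line), 13065 centred on the windows, 0 at equal depth and 0 to 3739 leaving out a line. Bodies higher in MethylMiner numbered 830 without the block, 172 centred on the windows, 4159 with edgeR, 0 at equal depth and 0 to 1036 leaving out a line. Windows higher in MethylCap numbered 920 without the block, 7448 centred, 676 with edgeR, 790 at equal depth, 4104 when only protein-coding genes were avoided and 881 to 1825 leaving out a line. Windows higher in MethylMiner numbered 17569 with at least 30 starts, 748 centred, 1134 with edgeR, 4797 at equal depth, 53118 when only protein-coding genes were avoided and 17528 to 28463 leaving out a line. At equal depth, features with no residual spread were left out, which left 15696 promoters, 17700 bodies and 70056 windows. Other settings also changed the number of features tested. Tested were 19220 promoters with no filter, 5752 with at least 30 starts, and 10899 and 18323 with flanks of 500 and 2000 bp. Windows tested were 46507 with at least 30 starts and 125926 when only protein-coding genes were avoided. The main run tested 16314 promoters and 71600 windows. Of the 85 named features, 2 turned direction, HOXC4 to 0.25 and PCDHGB3 to 1.30 with promoter flanks of 2000 bp. Of the named features, 62 of 84 lost their call at equal depth, 26 without HCT15, 19 without PC3, 10 without DU145 and 18 with edgeR. A median of 1 MethylCap start per tested promoter in DU145 and PC3 limits single promoters.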

Other observations

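The following were chosen after the values were seen and are given without explanation. Among the 10 promoters at most 20% methylated in all lines and yet higher in MethylCap, TRAF3, an adaptor of tumour necrosis factor receptors, had a relative depth of 8.31, 17.7 and 14.3 with MethylCap and 2.15, 4.67 and 3.29 with MethylMiner in HCT15, DU145 and PC3. RRBS gave 7.53, 8.04 and 7.73% over 98 to 117 of its CpGs. C3orf70 had 13.4, 8.08 and 15.6 against 3.46, 4.83 and 4.74, at 19.3, 10.6 and 13.3%. The other 8 were LIMK1, CSTF3, RNF152, ADAP1, DAGLA, AP2A2, C8G and ENSG00000288625.

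In a stretch of 2 Mb of chromosome 1 that holds IVL and other genes of the epidermal barrier, 28 of 61 tested promoters were higher in MethylMiner and 1 in MethylCap by limma, with a median log2 ratio of -2.20, or -1.10 with the bound, where 24.6% of all promoters were higher in MethylMiner. Of 33 intergenic windows there, 21 were higher in MethylMiner, against 44.5% of all windows. The bodies had 8 of 40 higher in MethylMiner and 6 in MethylCap, with a median of 0.06, against 8.5 and 24.2% of all bodies.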
